A study of Drosophila melanogaster with 12 samples.

Results

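The comparison described here sets fly heads that made human Aβ42 together with a shortened Yip7 protease against heads of healthy controls, and asks which features of the Aβ42 state were still present with the shortened protease. It uses 6 of the 12 samples of the series, 3 of AD + Yip7∆S and 3 of Control, chosen by the genotype in their sample labels. AD + Yip7∆S flies had the genotype nSyb>Abeta42+yip7_S, in which the pan-neuronal driver nSyb-Gal4 expressed both Aβ42 and Yip7∆S, an HA-tagged Yip7 without its putative transmembrane domain. Control flies had the genotype nSyb>w1118, with the driver but neither transgene. Per the study, the Aβ42 of its model carries the Arctic mutation, a form it describes as more pathogenic than the wild type peptide. The 3 AD samples (nSyb>Abeta42, with Aβ42 alone) serve as context, because a gene that differed from Control in AD + Yip7∆S could have the same level, a lower one or a higher one in AD. AD + Yip7 flies (nSyb>Abeta42+yip7, with the full-length protease) entered the statistical fit and are mentioned only where a result turns on them. All flies were mated females kept at 29 °C. They were 10 days old, except that the label of Control sample 3 gives an age of 2 weeks. Each sample was a pool of heads, although the label texts also mention dissected brain. The driver is neuronal, and RNA came from every cell type of the head. No sample carried Yip7∆S without Aβ42, so what Yip7∆S does in a head without Aβ42 cannot be told apart from what it does beside Aβ42.

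Aβ42 is the aggregation-prone peptide that accumulates in Alzheimer's disease. In this fly model it carries a secretion signal, so it passes through the endoplasmic reticulum (ER) of the neurons that make it. Cells answer unfolded protein in the ER with the unfolded protein response, which raises ER chaperones, and unfolded protein in the cytosol with the heat shock response, which raises cytosolic chaperones. Another programme, the integrated stress response, acts through the transcription factor ATF4, which is encoded by crc in flies. Yip7 is a chymotrypsin-like serine protease. The study reports that, unlike digestive proteases, it stays in the cell and lies in endosomes and lysosomes. This location required the putative transmembrane domain. By Western blot the study also detected less Yip7∆S protein than full-length Yip7 protein.

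The values are read counts per gene, and the 6 libraries were sequenced to a similar depth, with 39888862 to 41112864 counts per library in AD + Yip7∆S and 41590284 to 41737332 counts per library in Control. Levels are given as counts scaled to library size with TMM factors (CPM, as computed by edgeR), and 3 counts in a library corresponded to 0.071 to 0.0778 CPM in these 6 samples. CPM depends on transcript length, so levels of different genes were compared only to pick the most abundant of the called genes. In bulk tissue, fewer cells of a type and less RNA per cell cannot be told apart. AD + Yip7∆S sample 2 and Control sample 1 stood apart from the other samples of their groups. AD + Yip7∆S sample 2 had 82 genes at least 4-fold above both other samples of its group and Control sample 1 had 70, against 2 to 17 in the other 4 samples. Of these genes 52 were high in both libraries. They include CG34220, which had 26.7, 3383 and 87.9 CPM in AD + Yip7∆S, 6673, 10877 and 5573 CPM in AD and 5178, 564 and 159 CPM in Control, and the mucin gene Muc68D, which had 4.17, 550.1 and 15.8 CPM in AD + Yip7∆S, 1128, 1784 and 955 CPM in AD and 678, 62.6 and 29.1 CPM in Control. In both genes AD + Yip7∆S sample 2 lay closer to the AD samples than to AD + Yip7∆S samples 1 and 3. Counts of genes are therefore also given without these 2 libraries. Control sample 2 had the highest level of several antimicrobial peptide genes, and AD + Yip7∆S sample 3 the highest summed level of ribosomal protein genes, and both are given with the results they touch.

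**Figure D1:**
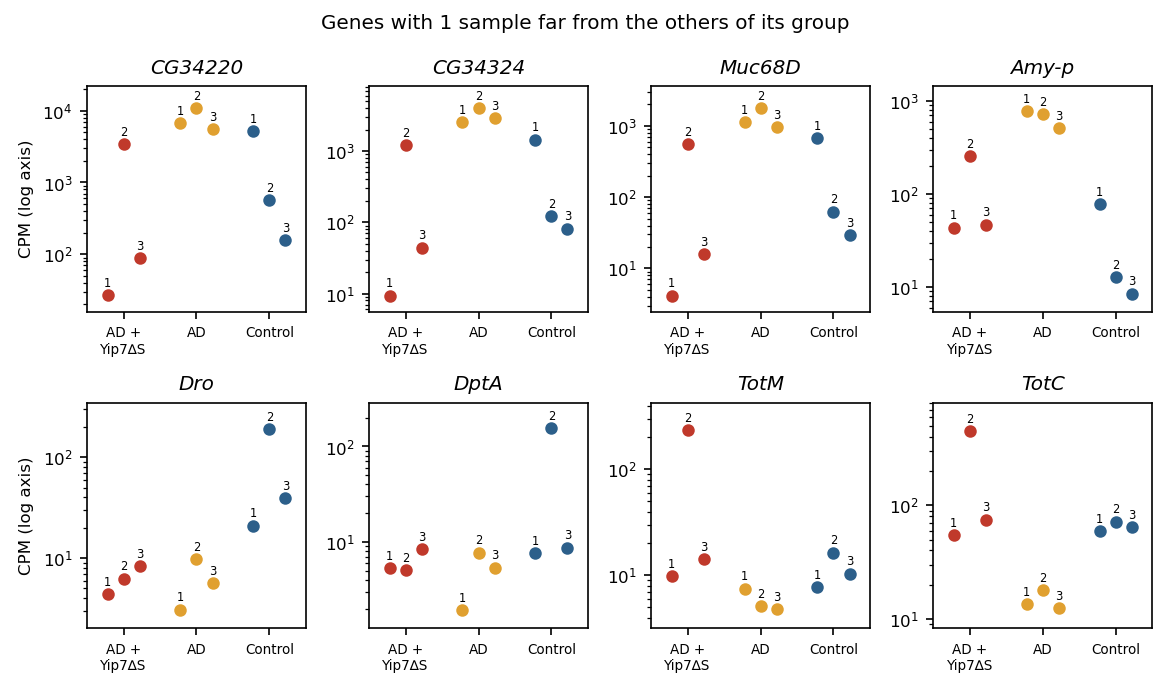
CPM of 8 genes on log axes in each of the 3 samples of AD + Yip7∆S, AD and Control, with 1 point per sample and its replicate number above it. AD + Yip7∆S sample 2 and Control sample 1 stand above the other samples of their groups in CG34220, CG34324, Muc68D and Amy-p, Control sample 2 is the highest in Dro and DptA, and AD + Yip7∆S sample 2 is the highest in TotM and TotC.

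Markers of head cell types were present in every sample, so the libraries carry the labelled tissue. The summed level of 5 neuronal markers (elav, nSyb, brp, Syt1, para) was 1977 to 2347 CPM in AD + Yip7∆S, against 2676 to 2839 CPM in Control, and the ranges did not overlap. Only para, the voltage-gated sodium channel, was called among these 5 (log2 fold change -0.69, adjusted p = 0.0296), and its call was lost in 4 of the 6 cases with 1 library left out (adjusted p between 0.0582 and 0.0968). The 7 glial markers summed to 1724 to 1896 CPM in AD + Yip7∆S and 1906 to 2173 CPM in Control. The 7 muscle markers summed to 3386 to 3578 CPM in AD + Yip7∆S and 4001 to 4560 CPM in Control. The summed photoreceptor markers were 50920 to 54760 CPM in AD + Yip7∆S and 53220 to 66820 CPM in Control, and fat body markers 94130 to 97970 CPM against 96970 to 106500 CPM. The 5 hemocyte markers summed to 344.3 to 473.7 CPM in AD + Yip7∆S, against 358.5 to 699.8 CPM in Control, and the 8 gut enterocyte markers to 403.7 to 688.3 CPM, against 290.8 to 380.4 CPM. Among the gut markers the trypsin gene betaTry was at 0 counts in every AD + Yip7∆S and Control library. Ovary markers summed to at most 0.8037 CPM in AD + Yip7∆S and 0.2398 CPM in Control. How far shifts in cell composition contribute to the differences below was not tested.

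The genes yip7, w and aos share sequence with the transgene constructs, and how many of their reads came from the transgenes was not tested. The yip7 gene had 73.8, 88.1 and 81.1 CPM in AD + Yip7∆S samples 1 to 3, against 5.97, 0 and 6.07 CPM in Control samples 1 to 3 (log2 fold change 4.34, standard error 0.74, adjusted p = 0.00129). All 3 AD + Yip7∆S samples were above all 3 Control samples, and the samples of the 2 groups did not overlap in 37.1% of all tested genes. AD samples, which carry no yip7 transgene, nevertheless had 157, 159 and 94.2 CPM, so the yip7 level does not mark the transgene in these heads. The eye pigment transporter gene w, which UAS constructs carry as their marker, had 185, 181 and 184 CPM in AD + Yip7∆S, 113, 108 and 141 CPM in AD and 111, 114.96 and 108 CPM in Control (log2 fold change 0.72, adjusted p = 0.000289 against Control and log2 fold change 0.61, adjusted p = 0.00804 against AD). The AD + Yip7∆S samples lay above every AD and every Control sample, and AD + Yip7∆S and AD samples did not overlap in 18% of all tested genes. The gene aos, whose secretion signal the Aβ42 transgene borrows, had 36.6, 34.4 and 35.9 CPM in AD + Yip7∆S, against 25.01, 29.2 and 26.8 CPM in Control (log2 fold change 0.40, adjusted p = 0.00956).

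In the edgeR quasi-likelihood test 1996 of 10577 genes differed between AD + Yip7∆S and Control at an adjusted p under 0.05, which is 18.9% of the genes tested. Of these, 1156 (10.9%) were higher and 840 (7.94%) were lower in AD + Yip7∆S. Counts of called list members against Control, given below, are to be read beside these shares of all tested genes. A 2-fold change or more was reached by 417 of the higher (3.94% of genes tested) and 210 of the lower genes (1.99%), and 41.5% of the called genes changed by less than 1.5-fold. The median log2 fold change of all tested genes was 0.0051. Fewer genes were called without single libraries, from 1363 without Control sample 3, the sample with the other age, to 1806 without AD + Yip7∆S sample 3. Without both AD + Yip7∆S sample 2 and Control sample 1 there were 1157 calls, 728 higher and 429 lower. Between AD + Yip7∆S and AD, which differ only by the yip7_S transgene in their labels, 196 genes were called (1.85%), with 92 (0.87%) higher and 104 (0.983%) lower in AD + Yip7∆S, and 45 (0.425%) of the higher and 53 (0.501%) of the lower genes reached 2-fold. AD against Control gave 2750 calls (26%), with 1518 (14.4%) higher and 1232 (11.6%) lower in AD, of which 564 (5.33%) and 289 (2.73%) reached 2-fold. The comparisons of AD + Yip7∆S and of AD with Control share the 3 Control samples, so their values are set side by side below, and a difference between AD + Yip7∆S and AD rests on the direct test. In a principal component plot of log2 CPM of the AD + Yip7∆S, AD and Control samples, the first component held 48.4% of the variance. On it AD + Yip7∆S lay at -3.51, 17.71 and -0.54, AD at 40.31 to 41.88 and Control at -54.66 to -31.11.

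**Figure D2:**
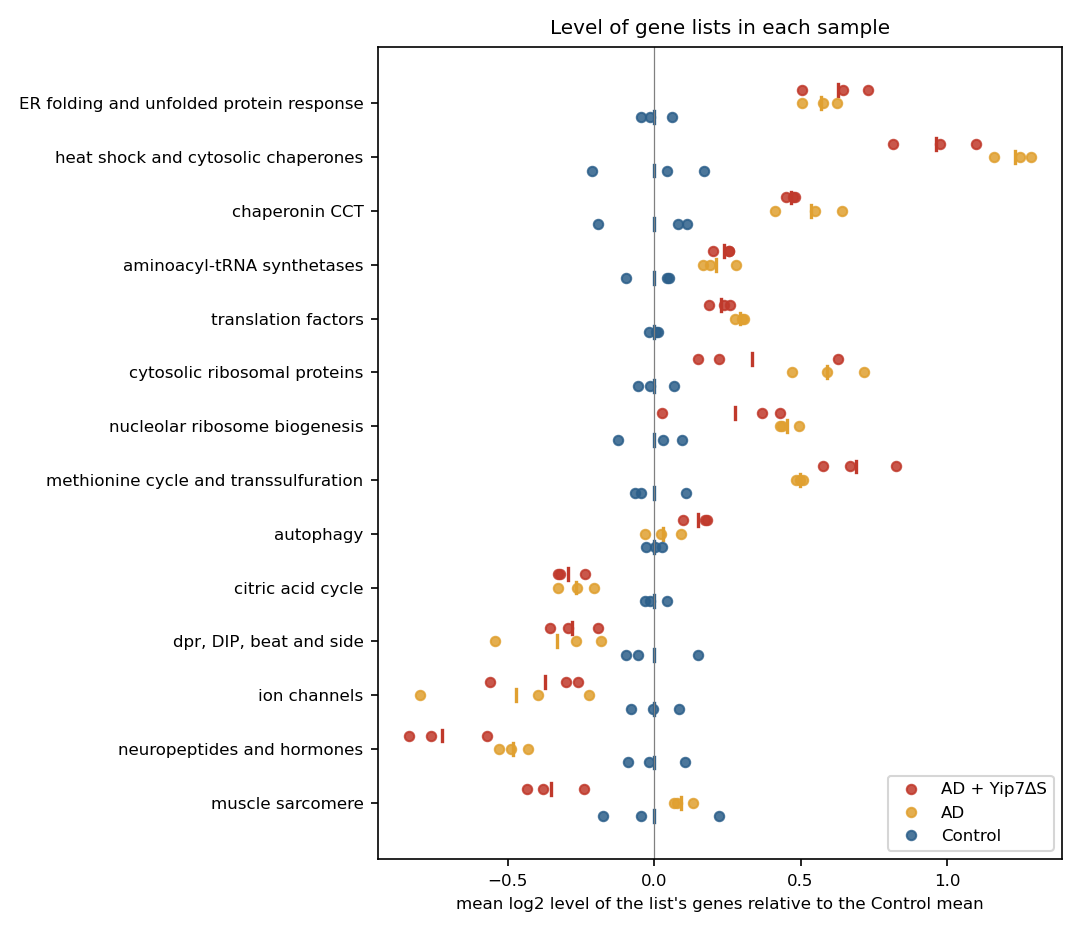
Mean log2 level of the genes of 14 lists in each sample relative to the Control mean, with 3 points per group and a short line at each group's mean for AD + Yip7∆S, AD and Control. ER and cytosolic chaperone lists lie to the right of Control in both AD + Yip7∆S and AD, the neuropeptide list lies to the left of Control in both, and the sarcomere list has a mean of -0.353 in AD + Yip7∆S and 0.093 in AD.

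Among the genes higher in AD + Yip7∆S, 154 met a rule of at least 2-fold change, no overlap between the samples and a mean of at least 5 CPM, and the 12 with the smallest adjusted p are named. Ldh, lactate dehydrogenase, which converts pyruvate to lactate, had 258, 226 and 227 CPM in AD + Yip7∆S samples 1 to 3, against 17.9, 14.7 and 15.2 CPM in Control samples 1 to 3 (log2 fold change 3.89, standard error 0.15, adjusted p = 5.62e-09). It lies on chromosome 3L, 6259105 to 6262694 of the dm6 build in the Ensembl annotation. Orct2, an organic cation transporter gene (chromosome 3R, 24273029 to 24275728), had 59.95, 56.2 and 59.5 CPM in AD + Yip7∆S, against 6.91, 7.01 and 7.87 CPM in Control (log2 fold change 3.01, standard error 0.089, adjusted p = 9.26e-10). The samples of both genes did not overlap between the groups. The cytochrome P450 gene Cyp4p2 had 56.1, 60.9 and 67.7 CPM in AD + Yip7∆S, against 3.73, 3.04 and 2.25 CPM in Control (log2 fold change 4.35, standard error 0.17, adjusted p = 6.58e-09). Rdh1, a retinol dehydrogenase gene, had 44.9, 47.6 and 42.96 CPM in AD + Yip7∆S, against 9.398, 8.02 and 8.11 CPM in Control (log2 fold change 2.41, adjusted p = 1.19e-08). The transporter gene MFS3 had 58.6, 52.2 and 57.2 CPM in AD + Yip7∆S, against 3.38, 2.199 and 1.94 CPM in Control (log2 fold change 4.48, adjusted p = 7.84e-09). All 5 genes were higher in every AD + Yip7∆S sample than in any Control sample. Values in AD of 4 of them were 219.7, 213 and 261 CPM for Ldh, 48.1, 46.4 and 47.6 CPM for Orct2, 74.7, 60.7 and 59.3 CPM for Cyp4p2 and 45.4, 40.9 and 48.2 CPM for MFS3. None of these 4 was called between AD + Yip7∆S and AD (adjusted p = 0.94, 0.0829, 0.862 and 0.357 in that order).

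The genes CG17264, CG9313 and CG8620 and the small heat shock protein gene Hsp23 were in the same group. CG17264 had 20.2, 19.4 and 16.8 CPM in AD + Yip7∆S, against 2.06, 2.46 and 2.28 CPM in Control (log2 fold change 3.05, adjusted p = 4.55e-09). CG9313 had 49.04, 47.6 and 40.1 CPM in AD + Yip7∆S, against 5.69, 4.35 and 4.92 CPM in Control (log2 fold change 3.19, adjusted p = 6.58e-09). CG8620 had 67.98, 71.6 and 47.8 CPM in AD + Yip7∆S, against 2.56, 1.88 and 2.06 CPM in Control (log2 fold change 4.85, adjusted p = 1.82e-08). All AD + Yip7∆S samples lay above all Control samples in these genes. The remaining 3 of the 12, rt, thw and c-cup, are described below with the genes that differed from AD and the genes near 0 in Control. Of the most abundant genes called higher, the translation elongation factor gene eEF1alpha1 averaged 8057 ± 1115 CPM in AD + Yip7∆S and 5708 ± 249.9 CPM in Control (SD, n = 3 each; log2 fold change 0.50, adjusted p = 0.0198). It lost its call without AD + Yip7∆S sample 3 (adjusted p = 0.0552), without Control sample 1 (adjusted p = 0.0527) or without Control sample 3 (adjusted p = 0.0776).

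**Figure D3:**
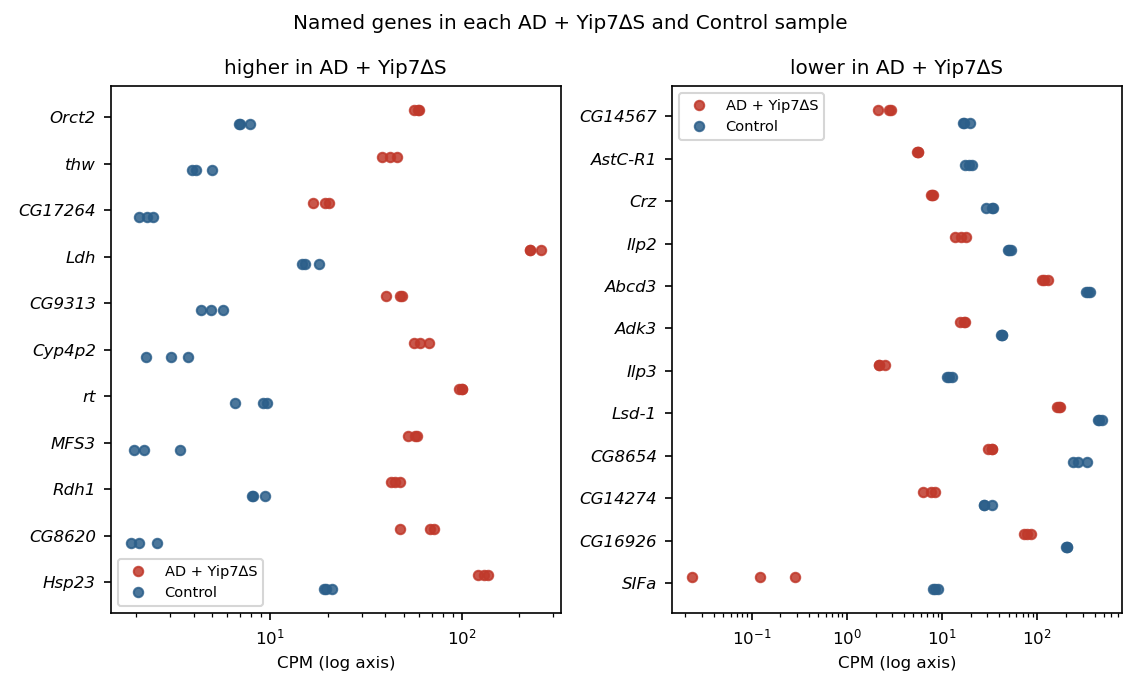
CPM on log axes of the named genes in each of the 3 AD + Yip7∆S and 3 Control samples, with 1 point per sample, genes higher in AD + Yip7∆S on the left and lower on the right. The groups are separated in every gene drawn, and c-cup is left out because 2 of its Control samples were at 0.

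Among the genes lower in AD + Yip7∆S, 109 met the same rule, and 4 of the 12 named ones encode neuropeptides or insulin-like peptides. Crz, which encodes the neuropeptide corazonin (chromosome 3R, 14314854 to 14315716), had 7.65, 7.98 and 7.804 CPM in AD + Yip7∆S samples 1 to 3, against 33.4, 34.5 and 28.6 CPM in Control samples 1 to 3 (log2 fold change -2.04, standard error 0.13, adjusted p = 3.31e-07). AstC-R1, a receptor for the neuropeptide allatostatin C, had 5.47, 5.605 and 5.65 CPM in AD + Yip7∆S, against 20.6, 19.2 and 17.2 CPM in Control (log2 fold change -1.77, standard error 0.10, adjusted p = 2.01e-07). Neither gene overlapped between the groups. Abcd3, a peroxisomal ABC transporter gene, had 131, 118 and 111 CPM in AD + Yip7∆S, against 355, 327 and 337 CPM in Control (log2 fold change -1.5, adjusted p = 1.03e-06). Adk3, an adenylate kinase gene, had 16.97, 17.3 and 15.6 CPM in AD + Yip7∆S, against 42.2, 42.8 and 41.7 CPM in Control (log2 fold change -1.34, adjusted p = 1.05e-06). Lsd-1, a perilipin gene of lipid droplets (chromosome 3R, 23763857 to 23766662), had 161, 173 and 168 CPM in AD + Yip7∆S, against 445, 473 and 431 CPM in Control (log2 fold change -1.42, adjusted p = 1.37e-06). Each of the 3 genes was lower in every AD + Yip7∆S sample than in any Control sample.

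CG8654 had 33.7, 30.01 and 33.8 CPM in AD + Yip7∆S, against 334, 271 and 235 CPM in Control (log2 fold change -3.11, adjusted p = 1.37e-06). CG14567 had 2.91, 2.14 and 2.77 CPM in AD + Yip7∆S, against 16.8, 19.6 and 17.1 CPM in Control (log2 fold change -2.77, adjusted p = 5.06e-08). Both were several-fold lower in each AD + Yip7∆S sample than in any Control sample. CG14274 had 6.37, 7.69 and 8.504 CPM in AD + Yip7∆S, against 33.5, 27.7 and 27.6 CPM in Control (log2 fold change -1.98, adjusted p = 2.2e-06). CG16926 had 77.5, 73.1 and 85.6 CPM in AD + Yip7∆S, against 203, 206 and 199 CPM in Control (log2 fold change -1.37, adjusted p = 2.8e-06). Neither of these overlapped between the groups. Of the most abundant genes called lower, the fatty acid synthase gene FASN1 averaged 2013 ± 178 CPM in AD + Yip7∆S and 3231 ± 509.9 CPM in Control (SD, n = 3 each; log2 fold change -0.68, adjusted p = 0.0254). Without single libraries the adjusted p of FASN1 was between 0.0608 and 0.105 in 4 of 6 cases. The transferrin gene Tsf1 averaged 1313 ± 195 CPM in AD + Yip7∆S and 1908 ± 236 CPM in Control (log2 fold change -0.54, adjusted p = 0.047), and its call was lost in 5 of the 6 cases with 1 library left out (adjusted p between 0.0645 and 0.159). AcCoAS, the acetyl-CoA synthetase gene, averaged 869.6 ± 64.3 CPM in AD + Yip7∆S and 1296 ± 161 CPM in Control (log2 fold change -0.58, adjusted p = 0.0074).

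ER folding and unfolded protein response genes were higher in AD + Yip7∆S. Of 30 such genes tested, 20 rose and 0 fell, against 10.9% and 7.94% of all genes, and the median log2 fold change was 0.495 (0.0051 for all genes). Hsc70-3, the fly BiP and main ER chaperone (chromosome X, 11801696 to 11807117), had 3925, 3629 and 2841 CPM in AD + Yip7∆S samples 1 to 3, against 470.2, 527 and 479 CPM in Control samples 1 to 3 (log2 fold change 2.82, standard error 0.15, adjusted p = 6.42e-08). Its AD samples had 3079, 2975 and 3280.5 CPM (log2 fold change 0.16, adjusted p = 0.662 for AD + Yip7∆S against AD). All AD + Yip7∆S and AD samples exceeded all Control samples, and AD and Control samples did not overlap in 44% of all tested genes. Gp93, the ER member of the Hsp90 family, had 777, 793 and 507 CPM in AD + Yip7∆S, against 193, 242 and 206 CPM in Control (log2 fold change 1.7, adjusted p = 4.31e-05). Sil1, a nucleotide exchange factor for BiP, had 51.6, 49.3 and 52.1 CPM in AD + Yip7∆S, against 16.6, 16.2 and 15.7 CPM in Control (log2 fold change 1.66, adjusted p = 1.09e-07). Neither overlapped between the groups. Ero1L, which oxidises ER proteins to form disulfide bonds, had 98.1, 94.6 and 82.7 CPM in AD + Yip7∆S, against 33.8, 33.03 and 30.8 CPM in Control (log2 fold change 1.5, adjusted p = 3.31e-07). Manf, a secreted ER stress protein, had 103, 104 and 87.2 CPM in AD + Yip7∆S, against 31.9, 37.1 and 33.98 CPM in Control (log2 fold change 1.51, adjusted p = 1.03e-06). All AD + Yip7∆S samples were above all Control samples in these 2 genes.

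The other members that rose included the disulfide isomerase genes CaBP1 (log2 fold change 1.35), ERp60 (0.56) and Pdi (0.50). The degradation genes Herp (0.71), Der-1 (0.57), Der-2 (0.66) and sip3 (0.29) rose as well, as did the stress sensor genes PEK (0.49) and Ire1 (0.49). Pdi and sip3 each lost the call in 4 of the 6 cases with 1 library left out (adjusted p between 0.0556 and 0.11 for Pdi and between 0.0831 and 0.129 for sip3). For AD against Control, 18 of the 30 rose and 1 fell, with a median of 0.424. Between AD + Yip7∆S and AD edgeR called 0 of the 30, with 3 higher and 1 lower at an unadjusted p under 0.05, and DESeq2 called 0. The count against Control was 15 to 20 with 1 library left out and 14 without AD + Yip7∆S sample 2 and Control sample 1.

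Of 17 integrated stress response genes, 6 (35.3%) rose and 2 (11.8%) fell in AD + Yip7∆S, beside 10.9% and 7.94% of all tested genes. The median log2 fold change was 0.165. Nmdmc, a mitochondrial folate enzyme, had 144, 189 and 158 CPM in AD + Yip7∆S samples 1 to 3, against 49.6, 61.3 and 57.8 CPM in Control samples 1 to 3 (log2 fold change 1.54, standard error 0.17, adjusted p = 5.29e-05), and no samples overlapped. The transcription factor gene crc had 321, 311 and 328 CPM in AD + Yip7∆S, against 216, 256 and 263 CPM in Control (log2 fold change 0.39, adjusted p = 0.02). The pseudokinase gene trbl (log2 fold change 0.72, adjusted p = 0.000404), Gadd45 (log2 fold change 0.62, adjusted p = 0.0256) and eIF2alpha (log2 fold change 0.31, adjusted p = 0.0426) rose too, and Ldh was the sixth. The phosphoserine phosphatase gene aay had 313, 414 and 316 CPM in AD + Yip7∆S, against 529.6, 563 and 691 CPM in Control (log2 fold change -0.78, adjusted p = 0.00508), and P5cr, a proline synthesis gene, was the other one that fell (log2 fold change -0.39, adjusted p = 0.0486). With 1 library left out 3 to 6 of the 17 rose, with 3 without AD + Yip7∆S sample 1 and 4 without sample 2 or without any 1 of the Control samples. Without both AD + Yip7∆S sample 2 and Control sample 1 the number was 3. Of the 6 cases with 1 library left out, the call was lost in 4 for Gadd45 (adjusted p between 0.0679 and 0.0996), in 5 for eIF2alpha (between 0.0508 and 0.152) and in all 6 for P5cr (between 0.055 and 0.155). The call of crc was lost without AD + Yip7∆S sample 1 (adjusted p = 0.0503) or Control sample 1 (adjusted p = 0.0767).

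Cytosolic chaperones showed the same direction. Of 27 heat shock and cytosolic chaperone genes, 16 rose and 1 fell in AD + Yip7∆S, with a median log2 fold change of 0.518. Hsp23, a small heat shock protein gene (chromosome 3L, 9381882 to 9382765), had 131, 138 and 121 CPM in AD + Yip7∆S samples 1 to 3, against 21.1, 19.6 and 19.2 CPM in Control samples 1 to 3 (log2 fold change 2.7, standard error 0.13, adjusted p = 2.22e-08). Hsp26 had 88.7, 106 and 79.3 CPM in AD + Yip7∆S, against 16.4, 11.6 and 15.3 CPM in Control (log2 fold change 2.66, adjusted p = 7.36e-07). Hsp27 had 18.7, 18.9 and 12.6 CPM in AD + Yip7∆S, against 7.43, 2.95 and 6.19 CPM in Control (log2 fold change 1.6, adjusted p = 0.00141). All AD + Yip7∆S samples lay above all Control samples in the 3 genes. The 6 copies of Hsp70 are nearly identical, and reads of one copy can be counted for another, so they were summed. Summed Hsp70 was 109.2, 120.1 and 84.67 CPM in AD + Yip7∆S, 131.1, 113.5 and 100.1 CPM in AD and 49.6, 37.79 and 55.02 CPM in Control, with no overlap between AD + Yip7∆S and Control. Hsc70-4, the main constitutive cytosolic Hsp70, averaged 3423 ± 242 CPM in AD + Yip7∆S and 2414 ± 283 CPM in Control (SD, n = 3 each; log2 fold change 0.50, adjusted p = 0.0163), and lost its call without AD + Yip7∆S sample 2 (adjusted p = 0.0577) or without Control sample 1 (adjusted p = 0.0669). The gene that fell was Hsc70-1, with 12.6, 10.6 and 12.7 CPM in AD + Yip7∆S, against 27.3, 23.001 and 21.7 CPM in Control (log2 fold change -1.0, adjusted p = 0.00172).

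In AD against Control 18 of these 27 rose and 0 fell, and the median was 0.861. Against AD directly, edgeR called 2 of the 27 lower in AD + Yip7∆S and 0 higher, against 0.983% and 0.87% of all genes. They are the small heat shock protein genes l(2)efl, with 92.9, 164 and 132 CPM in AD + Yip7∆S, 269, 267 and 307 CPM in AD and 79.01, 75.8 and 69.98 CPM in Control (log2 fold change -1.12, adjusted p = 0.00337 against AD), and CG14207. The levels of CG14207 were 202, 227 and 249 CPM in AD + Yip7∆S, 312, 294 and 344 CPM in AD and 179, 171 and 173 CPM in Control (log2 fold change -0.49, adjusted p = 0.0248 against AD). Both genes had levels in AD + Yip7∆S between those in AD and those in Control, and both were also called higher than Control (log2 fold change 0.79, adjusted p = 0.00391 for l(2)efl and log2 fold change 0.37, adjusted p = 0.0165 for CG14207). The call of CG14207 against Control was lost without AD + Yip7∆S sample 3, Control sample 2 or Control sample 3 (adjusted p between 0.0515 and 0.0615), and against AD in 4 of the 6 cases with 1 library left out (adjusted p between 0.0569 and 0.0966). The CCT chaperonin, which folds actin and tubulin, had 7 of 8 subunit genes higher in AD + Yip7∆S than in Control (median 0.478), led by CCT5 (log2 fold change 0.68, adjusted p = 0.000538). Without Control sample 1 the number fell to 3.

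Of 86 cytosolic ribosomal protein genes tested, 7 rose and 0 fell against Control. The 7 are 8.14% of the list, below the 10.9% of all tested genes called higher. At an unadjusted p under 0.05, 28 were higher and 0 lower, and DESeq2 in the 12-sample fit called 14 higher. In 35 of the 86 all AD + Yip7∆S samples were above all Control samples, beside 19% of all tested genes. All 86 had a positive log2 fold change under TMM scaling, with a median of 0.256. The call count depended on single libraries, with 15 without AD + Yip7∆S sample 1, 5 without sample 2, 2 without sample 3, 2 without Control sample 1 or 3 and 3 without Control sample 2. Relative to Control, the mean log2 level of these genes was 0.63 in AD + Yip7∆S sample 3, against 0.15 and 0.22 in samples 1 and 2. RpS3, the most abundant of those called, had 1446, 1515 and 1848 CPM in AD + Yip7∆S, against 1100.1, 1264 and 1107 CPM in Control (log2 fold change 0.47, adjusted p = 0.0182), and its adjusted p was 0.0512 without AD + Yip7∆S sample 3, 0.0645 without Control sample 1 and 0.0738 without Control sample 3. The 3 members with the largest changes, RpS10a, RpL37b and RpS5b, are paralogs of other ribosomal protein genes in the fly. RpL37b had 0.331, 0.121 and 0.181 CPM in AD + Yip7∆S, 0.553, 0.321 and 0.975 CPM in AD and 0, 0 and 0.0240 CPM in Control (adjusted p = 0.00797 against Control), which is at most 1 count per Control library. RpS5b had 0.426, 0.315 and 0.493 CPM in AD + Yip7∆S, 0.528, 0.321 and 0.737 CPM in AD and 0.0249, 0.169 and 0.168 CPM in Control (log2 fold change 1.73, adjusted p = 0.0431), and its call was lost with any 1 library left out (adjusted p between 0.0553 and 0.124). Against Control, 71 of the 86 rose in AD, with a median of 0.50. The direct median of AD + Yip7∆S against AD was -0.249, with 0 of the 86 called by edgeR, 19 lower at an unadjusted p under 0.05 and 1 called by DESeq2 in the 12-sample fit.

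Of 33 aminoacyl-tRNA synthetase genes, which charge tRNAs with amino acids, 12 rose and 0 fell, with a median of 0.148. ValRS had 113, 108 and 87.03 CPM in AD + Yip7∆S, against 44.5, 51.5 and 50.5 CPM in Control (log2 fold change 1.07, adjusted p = 3.42e-05). ThrRS had 158, 147 and 127 CPM in AD + Yip7∆S, against 71.7, 84.3 and 80.7 CPM in Control (log2 fold change 0.87, adjusted p = 0.000366). Neither gene overlapped between the groups, and the count was 10 to 12 with 1 library left out. Of 48 translation factor genes 17 rose and 0 fell (median 0.273), but the number was 3 without Control sample 1, 4 without Control sample 3, 10 without AD + Yip7∆S sample 2 or 3 and 1 without both AD + Yip7∆S sample 2 and Control sample 1. The elongation factor gene eEF2 had 3738, 3689 and 4471 CPM in AD + Yip7∆S, against 2652, 3154 and 2868 CPM in Control (log2 fold change 0.46, adjusted p = 0.0199), and its call was lost without AD + Yip7∆S sample 3 (adjusted p = 0.0505), Control sample 1 (adjusted p = 0.0757) or Control sample 3 (adjusted p = 0.0674). Of 26 nucleolar ribosome biogenesis genes 8 rose and 0 fell (median 0.277), led by Fib, the rRNA methylase fibrillarin (log2 fold change 0.71, adjusted p = 0.00413). The number was 3 without AD + Yip7∆S sample 1, 4 without Control sample 1, 5 without AD + Yip7∆S sample 2 or Control sample 2, and 0 without both AD + Yip7∆S sample 2 and Control sample 1.

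Of 22 citric acid cycle genes 0 rose and 12 fell in AD + Yip7∆S, with a median log2 fold change of -0.298. Of 15 glycolysis genes 1 rose, which is Ldh, and 3 fell, with a median of -0.032. PCB, pyruvate carboxylase, had 628, 621 and 457 CPM in AD + Yip7∆S samples 1 to 3, against 771, 898 and 898 CPM in Control samples 1 to 3 (log2 fold change -0.59, standard error 0.14, adjusted p = 0.0107). Ogdh, a subunit of the 2-oxoglutarate dehydrogenase, had 734, 757 and 655 CPM in AD + Yip7∆S, against 1215, 974 and 947 CPM in Control (log2 fold change -0.55, adjusted p = 0.00831). The citrate synthase gene kdn had 584, 553 and 466 CPM in AD + Yip7∆S, against 689, 747 and 755 CPM in Control (log2 fold change -0.45, adjusted p = 0.00913). In each of the 3 genes the AD + Yip7∆S samples lay below all Control samples. Compared with Control, 0 rose and 11 fell in AD, and between AD + Yip7∆S and AD edgeR called 0 of the 22, with 2 lower at an unadjusted p under 0.05 and 0 called by DESeq2. The count of 12 was 9 to 13 with 1 library left out and 4 without AD + Yip7∆S sample 2 and Control sample 1. The glycerol-phosphate shuttle genes Gpo1 and Gpdh1 fell as well. Gpdh1 had 494, 537 and 486 CPM in AD + Yip7∆S, against 958, 935 and 961 CPM in Control (log2 fold change -0.91, adjusted p = 7.97e-05). Gpo1 had 132, 127 and 97.4 CPM in AD + Yip7∆S, against 234, 275 and 288 CPM in Control (log2 fold change -1.16, adjusted p = 0.000278). Of 74 respiratory chain and ATP synthase genes 1 (1.35%) rose and 9 (12.2%) fell (median -0.160), beside 10.9% and 7.94% of all tested genes. The 9 became 3 to 5 without AD + Yip7∆S sample 1 or 2 or any 1 Control sample and 30 without AD + Yip7∆S sample 3.

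The methionine cycle makes and spends the methyl donor S-adenosylmethionine, and 5 of its 11 genes tested rose while 0 fell (median 0.378). Gnmt, a glycine methyltransferase that consumes the methyl donor, had 70.3, 103 and 51.05 CPM in AD + Yip7∆S, 11.9, 18.0 and 20.9 CPM in AD and 7.81, 10.4 and 4.797 CPM in Control (log2 fold change 3.28, adjusted p = 0.0154 against Control). All AD + Yip7∆S samples were above all AD and Control samples, although the call was lost without Control sample 3 (adjusted p = 0.0662) and was not made against AD (adjusted p = 0.214). Sam-S, which makes the methyl donor, had 559.7, 624 and 571 CPM in AD + Yip7∆S, against 430.0, 309 and 325 CPM in Control (log2 fold change 0.72, adjusted p = 0.00625). Ahcy, which removes its by-product (log2 fold change 0.99, adjusted p = 0.000339), and Cbs, which leads to cysteine (log2 fold change 0.84, adjusted p = 0.0063), rose too. Of all tested genes 10.9% rose and 7.94% fell. Of 21 lipid synthesis and lipolysis genes 3 (14.3%) rose and 6 (28.6%) fell (3 without Control sample 2 and 4 without AD + Yip7∆S sample 2 or Control sample 3). Among them SREBP, a lipid-synthesis transcription factor gene (log2 fold change 0.79, adjusted p = 0.000138), and bmm, a lipase gene (log2 fold change 0.61, adjusted p = 0.0132), rose, and the perilipin gene Lsd-2 (log2 fold change -0.84, adjusted p = 0.000155) fell with Lsd-1. The larval serum protein gene Lsp1beta had 60.5, 57.1 and 58.8 CPM in AD + Yip7∆S samples 1 to 3, against 2436, 1711 and 1505 CPM in Control samples 1 to 3 (log2 fold change -5.0, standard error 0.51, adjusted p = 2.76e-05). In AD it had 8.92, 34.5 and 20.6 CPM, and neither the AD + Yip7∆S nor the AD samples overlapped with Control. Cyp4e3, a cytochrome P450 gene, had 41.99, 42.1 and 34.3 CPM in AD + Yip7∆S, 62.9, 26.3 and 51.2 CPM in AD and 1348, 929.9 and 804 CPM in Control (log2 fold change -4.7, adjusted p = 6.29e-06 against Control). All AD + Yip7∆S samples were far below all Control samples in both genes.

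Neuropeptide and hormone genes were lower in AD + Yip7∆S. Of 42 tested, 2 rose and 19 fell, against 10.9% and 7.94% of all genes, with a median log2 fold change of -0.605. The number that fell was 19 or 20 with any 1 library left out and 19 without both AD + Yip7∆S sample 2 and Control sample 1. SIFa, a peptide made by a few brain neurons (chromosome 2R, 24577566 to 24578143), had 0.0237, 0.121 and 0.285 CPM in AD + Yip7∆S samples 1 to 3, against 8.08, 9.11 and 8.37 CPM in Control samples 1 to 3 (log2 fold change -5.89, standard error 0.48, adjusted p = 3.69e-06). Its AD samples had 0.578, 0.618 and 1.02 CPM (log2 fold change -2.38, adjusted p = 0.04 for AD + Yip7∆S against AD, lost in 5 of the 6 cases with 1 library left out). The AD + Yip7∆S samples were the lowest of the 3 groups without overlap. Crz was given above. Eh, the eclosion hormone, had 0.237, 0.146 and 0.0259 CPM in AD + Yip7∆S, 0.251, 0.223 and 0.0713 CPM in AD and 2.04, 1.91 and 2.18 CPM in Control (log2 fold change -3.86, adjusted p = 0.000211 against Control). Hug, the feeding-related peptide gene hugin, had 10.01, 11.96 and 11.1 CPM in AD + Yip7∆S, 23.1, 19.2 and 23.8 CPM in AD and 34.1, 39.6 and 35.2 CPM in Control (log2 fold change -1.72, adjusted p = 9.68e-06 against Control and log2 fold change -0.99, adjusted p = 0.00617 against AD).

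Insulin-like peptides of the brain's insulin-producing cells were among those that fell. Ilp2 had 15.98, 13.8 and 17.7 CPM in AD + Yip7∆S, 16.5, 20.5 and 15.96 CPM in AD and 49.7, 50.5 and 53.4 CPM in Control (log2 fold change -1.69, standard error 0.12, adjusted p = 1.03e-06 against Control). Ilp3 had 2.201, 2.18 and 2.54 CPM in AD + Yip7∆S, 2.71, 3.56 and 2.24 CPM in AD and 11.2, 12.6 and 11.9 CPM in Control (log2 fold change -2.36, adjusted p = 1.05e-06). Ilp5 had 3.93, 3.88 and 5.65 CPM in AD + Yip7∆S, 6.18, 6.63 and 5.64 CPM in AD and 13.1, 10.5 and 11.3 CPM in Control (log2 fold change -1.38, adjusted p = 0.00034). In the 3 genes every AD + Yip7∆S sample was below every Control sample. Between AD + Yip7∆S and AD their adjusted p was 0.593 for Ilp2, 0.457 for Ilp3 and 0.288 for Ilp5. Trissin (log2 fold change -1.87, adjusted p = 2.71e-05), CNMa (log2 fold change -1.48, adjusted p = 0.00397), AstC, which encodes allatostatin C (log2 fold change -1.01, adjusted p = 3.77e-05), Tk, tachykinin (log2 fold change -0.95, adjusted p = 1.77e-05), Dh44, a diuretic hormone (log2 fold change -0.95, adjusted p = 0.000318), and NPF, neuropeptide F (log2 fold change -0.74, adjusted p = 0.00253), fell too. The 2 that rose were Proc, proctolin, with 85.1, 95.6 and 92.6 CPM in AD + Yip7∆S, against 54.5, 47.98 and 48.4 CPM in Control (log2 fold change 0.86, adjusted p = 3.13e-05), and CCHa1. The levels of CCHa1 were 6.67, 5.63 and 4.93 CPM in AD + Yip7∆S, against 3.63, 3.72 and 4.27 CPM in Control (log2 fold change 0.57, adjusted p = 0.0197). The call of CCHa1 was lost without AD + Yip7∆S sample 1, Control sample 1 or Control sample 2 (adjusted p between 0.0674 and 0.0804).

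In AD against Control 5 of the 42 rose and 22 fell, with a median of -0.509. Against AD directly, 6 of the 42 were lower in AD + Yip7∆S and 0 higher by edgeR (1 higher at an unadjusted p under 0.05, and 0 higher by DESeq2). With 1 library left out the number was between 1 and 5, with 1 without AD + Yip7∆S sample 1, AD sample 2 or AD sample 3, 2 without AD + Yip7∆S sample 3, 3 without AD + Yip7∆S sample 2 and 5 without AD sample 1. Besides Crz, SIFa and Hug these were Capa, FMRFa and Akh. Capa had 33.5, 32.5 and 37.4 CPM in AD + Yip7∆S, 47.6, 54.1 and 61.2 CPM in AD and 79.4, 77.5 and 65.9 CPM in Control (log2 fold change -0.65, adjusted p = 0.0377 against AD). FMRFa had 11.5, 13.4 and 12.9 CPM in AD + Yip7∆S, 20.4, 18.6 and 19.4 CPM in AD and 10.4, 9.16 and 10.1 CPM in Control (log2 fold change -0.63, adjusted p = 0.034 against AD). Akh, the adipokinetic hormone, had 6.63, 9.03 and 10.2 CPM in AD + Yip7∆S, 37.5, 52.3 and 40.3 CPM in AD and 18.7, 8.67 and 3.96 CPM in Control (log2 fold change -2.33, adjusted p = 0.0204 against AD). In FMRFa all AD + Yip7∆S samples were above all Control samples, and in Akh the AD + Yip7∆S and Control samples overlapped. Crz had 9.78, 11.4 and 13.5 CPM in AD (log2 fold change -0.57, adjusted p = 0.04 against AD). Every AD + Yip7∆S sample lay below every AD sample in these 6 genes. With 1 library left out the adjusted p against AD was above the threshold in 5 of 6 cases for Crz (0.0766 to 0.133), SIFa (0.0699 to 0.129), Capa (0.0557 to 0.129) and FMRFa (0.0663 to 0.131), in 4 for Akh (0.052 to 0.0911) and in 0 for Hug. The summed neuronal markers were also lower in AD + Yip7∆S than in Control (values above), and their part in the lower peptide levels was not tested.

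**Figure D4:**
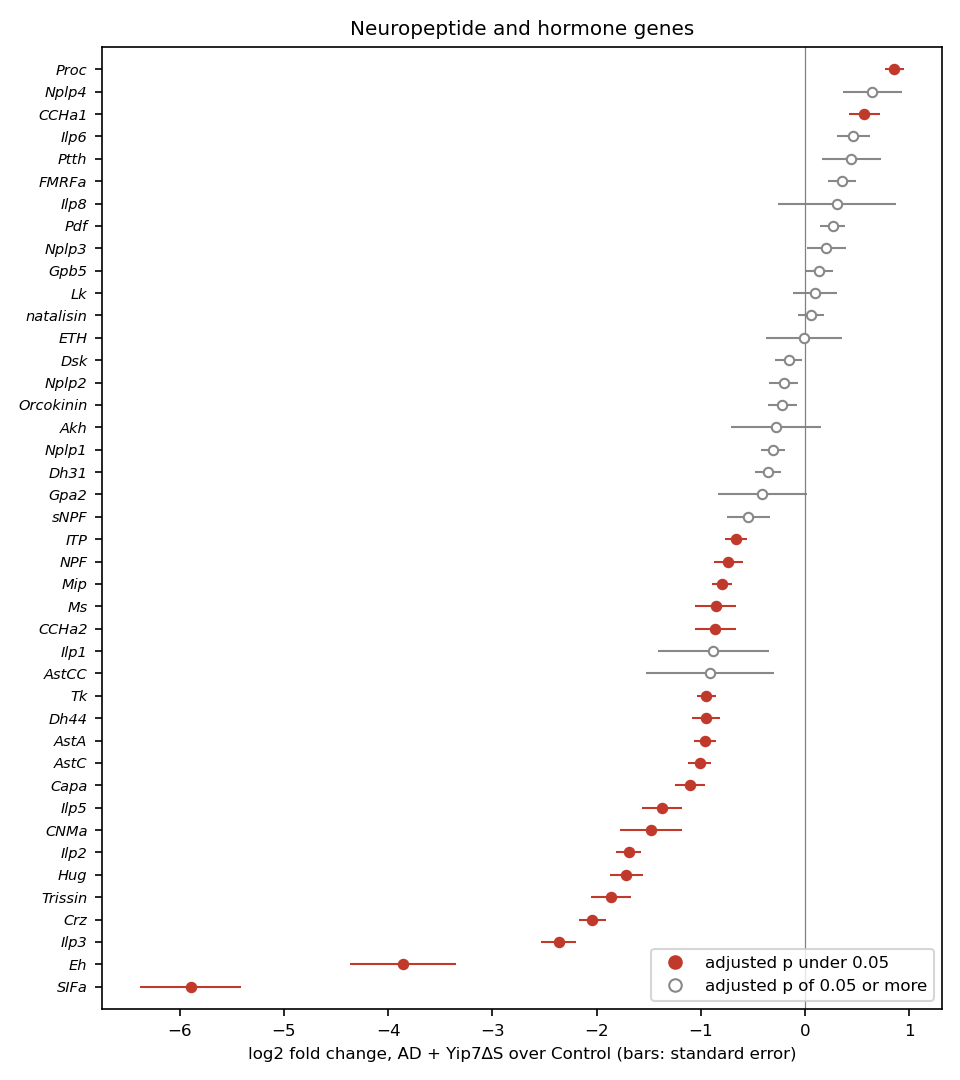
Log2 fold change of AD + Yip7∆S over Control for the 42 neuropeptide and hormone genes tested, 1 gene per line with its standard error as a bar, filled where the adjusted p was under 0.05. The values run from -5.89 for SIFa at one end, 19 filled points lie to the left of 0 and 2 (Proc and CCHa1) to the right.

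Genes for signalling between neurons were called mostly in the lower direction. Of 29 synaptic vesicle and active zone genes 0 rose and 1 fell, Rbp, an active zone protein (log2 fold change -0.54, adjusted p = 0.0484), whose call was lost in 4 of the 6 cases with 1 library left out (adjusted p between 0.0562 and 0.134). This is 3.45% of the list, below the 7.94% of all tested genes called lower. The median log2 fold change was -0.223, with 6 lower at an unadjusted p under 0.05 and 3 lower by DESeq2 in the 12-sample fit. In 11 of the 29 all AD + Yip7∆S samples were below all Control samples, beside 18.1% of all tested genes. In AD against Control 10 of the 29 fell. No synaptic gene was called higher by edgeR or DESeq2 or at an unadjusted p under 0.05. Of 31 ion channel genes 5 (16.1%) fell and 0 rose (median -0.385), beside 7.94% and 10.9% of all tested genes. The 5 were slo, Teh4, para, Teh2 and Shal. The potassium channel gene slo had 206, 233 and 196 CPM in AD + Yip7∆S, against 471, 309 and 338 CPM in Control (log2 fold change -0.81, adjusted p = 0.0189), without overlap, and its call was lost without AD + Yip7∆S sample 1 or 3 or Control sample 1 (adjusted p between 0.0565 and 0.0766). The number was 2 without Control sample 1 and 3 without AD + Yip7∆S sample 1 or 3, 12 with the replicate number as a block, and 14 by DESeq2 on all 12 samples. The number lower in AD than in Control was 14. Of 25 genes that make, transport or remove classical transmitters, 2 rose and 8 fell. The mitochondrial glutamine synthetase gene Gs1 had 189, 196 and 224 CPM in AD + Yip7∆S, against 360.1, 367 and 331 CPM in Control (log2 fold change -0.80, adjusted p = 0.000707). The glial glutamate transporter gene Eaat1 had 209, 224 and 253 CPM in AD + Yip7∆S, against 347, 327 and 351 CPM in Control (log2 fold change -0.58, adjusted p = 0.00333). VAChT, the vesicular acetylcholine transporter, had 86.6, 101 and 97.9 CPM in AD + Yip7∆S, against 206, 119 and 131 CPM in Control (log2 fold change -0.68, adjusted p = 0.0209), with an adjusted p of 0.0727 without AD + Yip7∆S sample 1 and 0.0733 without Control sample 1. None of the 3 overlapped. The 2 that rose were Tdc2 (log2 fold change 0.56, adjusted p = 0.0301) and Trh (log2 fold change 0.32, adjusted p = 0.0185), which act in octopamine and serotonin synthesis. Both calls were lost without Control sample 1 or 2 (adjusted p between 0.0584 and 0.113), and that of Tdc2 also without AD + Yip7∆S sample 1 (adjusted p = 0.0984) or 2 (adjusted p = 0.0663). The number that fell was 4 without Control sample 1 and 5 without AD + Yip7∆S sample 1 or Control sample 3.

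Of 53 genes of the dpr, DIP, beat and side families, cell-surface proteins by which neurons recognise partners, 1 rose and 17 fell (median -0.270). The gene side-IV had 42.7, 38.3 and 34.7 CPM in AD + Yip7∆S, against 75.8, 78.2 and 77.2 CPM in Control (log2 fold change -1.0, adjusted p = 1e-05). DIP-epsilon had 15.6, 18.6 and 17.97 CPM in AD + Yip7∆S, against 31.1, 29.3 and 28.01 CPM in Control (log2 fold change -0.76, adjusted p = 0.000461), and neither gene overlapped between the groups. The number that fell was 10 without Control sample 1 or 3, 11 without AD + Yip7∆S sample 3 and 8 without AD + Yip7∆S sample 2 and Control sample 1. Of 45 olfactory receptor genes 1 rose and 11 fell, although the median of all 45 was -0.054, and the number that rose was 2 without AD + Yip7∆S sample 2 or Control sample 2 and 3 without Control sample 1. Or22a had 0.0947, 0.0243 and 0.0519 CPM in AD + Yip7∆S samples 1 to 3, against 2.26, 1.47 and 1.22 CPM in Control samples 1 to 3 (log2 fold change -4.78, standard error 0.61, adjusted p = 0.000165). Or59b had 0.615, 0.388 and 0.648 CPM in AD + Yip7∆S, against 6.24, 3.74 and 3.96 CPM in Control (log2 fold change -3.07, adjusted p = 3.29e-05). These 2 receptor genes were low in every AD + Yip7∆S sample. In AD the levels were 0.0503, 0 and 0.0951 CPM for Or22a and 0.478, 0.569 and 0.547 CPM for Or59b. Or49b, the one that rose, had 0.852, 1.41 and 2.02 CPM in AD + Yip7∆S, against 0.572, 0.387 and 0.192 CPM in Control (log2 fold change 1.89, adjusted p = 0.00766). Of 30 phototransduction genes 0 rose and 5 (16.7%) fell (median -0.154), beside 10.9% and 7.94% of all tested genes. The number that fell was 3 without AD + Yip7∆S sample 2 or 3 or Control sample 2 and 2 without Control sample 3. Rh3, an ultraviolet-sensing opsin, had 858, 859 and 1077 CPM in AD + Yip7∆S, against 1209, 1309 and 1215 CPM in Control (log2 fold change -0.42, adjusted p = 0.0213). The call of Rh3 was lost in 4 of the 6 cases with 1 library left out (adjusted p between 0.053 and 0.0798).

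Of 17 glial genes 0 were called higher and 2 (11.8%) lower against Control (Eaat1 and moody), beside 10.9% and 7.94% of all tested genes. In AD against Control 9 of the 17 fell, beside 11.6% of all tested genes. Against AD directly 3 of the 17 were higher in AD + Yip7∆S and 0 lower by edgeR, beside 0.87% and 0.983% of all tested genes. At an unadjusted p under 0.05, 9 were higher and 0 lower, and by DESeq2 4 were higher and 0 lower. The gene moody, for a receptor of the blood-brain barrier glia, had 81.2, 73.7 and 64.4 CPM in AD + Yip7∆S, 66.7, 68.2 and 57.6 CPM in AD and 95.1, 90.1 and 93.5 CPM in Control (log2 fold change -0.35, adjusted p = 0.031 against Control). Without AD + Yip7∆S sample 2 or 3 or any 1 Control sample only 1 glial gene was lower than Control, and moody lost its call in these 5 cases (adjusted p between 0.0626 and 0.0882). The 3 higher than in AD became 0 without AD + Yip7∆S sample 1 or any 1 AD sample and 1 without AD + Yip7∆S sample 3.

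Sarcomere genes were lower in AD + Yip7∆S than in Control, and several were also lower than in AD. Of 27 sarcomere genes 1 rose and 11 fell in AD + Yip7∆S against Control, with a median of -0.436 on the log2 scale. The counts for AD against Control were 6 higher and 1 lower, with a median of 0.027. The direct test of AD + Yip7∆S against AD called 5 lower and 0 higher by edgeR (median -0.408), 21 lower and 0 higher at an unadjusted p under 0.05, and 15 lower and 0 higher by DESeq2. Act88F, the flight muscle actin (chromosome 3R, 15439969 to 15442177), had 4.97, 6.43 and 8.24 CPM in AD + Yip7∆S samples 1 to 3, against 25.01, 17.6 and 15.9 CPM in Control samples 1 to 3 (log2 fold change -1.58, standard error 0.19, adjusted p = 8.32e-05). Its AD samples had 14.9, 14.9 and 13.3 CPM (log2 fold change -1.14, adjusted p = 0.00804 for AD + Yip7∆S against AD). The AD + Yip7∆S samples were the lowest of the 3 groups without overlap. Mlp60A, a muscle LIM protein gene, had 135, 145 and 178 CPM in AD + Yip7∆S, 238, 224 and 277 CPM in AD and 255, 236 and 221 CPM in Control (log2 fold change -0.64, adjusted p = 0.00311 against Control and log2 fold change -0.69, adjusted p = 0.0145 against AD), and its adjusted p against AD was 0.0714 without AD + Yip7∆S sample 1 and 0.052 without AD sample 3. Mhc, the muscle myosin heavy chain, had 1394, 1259 and 977 CPM in AD + Yip7∆S, 1514, 1638 and 1466 CPM in AD and 1933, 1787 and 1723 CPM in Control (log2 fold change -0.58, adjusted p = 0.0131 against Control and log2 fold change -0.35, adjusted p = 0.272 against AD). Act87E, an actin gene, was the one that rose (log2 fold change 0.88, adjusted p = 0.00398).

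The number of sarcomere genes lower than AD was 3 without AD + Yip7∆S sample 1 or AD sample 2, 2 without AD sample 3 and 5 or 6 without any other 1 library. The number lower than Control was 8 to 12 with 1 library left out and 4 without AD + Yip7∆S sample 2 and Control sample 1. Without both of these libraries the adjusted p of Mhc was 0.0741. The 7 muscle markers, which are all in the sarcomere list too, summed to 3386 to 3578 CPM in AD + Yip7∆S, 4697 to 4965 CPM in AD and 4001 to 4560 CPM in Control. A lower share of muscle in the pooled heads was not tested.

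Stress and inflammation markers that the study tracks were still higher than in Control. Of 13 such genes 10 rose and 0 fell, with a median log2 fold change of 0.593. This list was chosen by the study with these samples in view and is not independent evidence of its direction. It includes Ldh, which the study discusses apart from these markers and which is also counted above under the integrated stress response and glycolysis. The study's markers also include Hsc70-3, CaBP1 and ERp60, counted above as ER genes, so the counts of these lists are not separate. Socs36E, an inhibitor and target of JAK-STAT signalling, had 91.9, 87.8 and 66.97 CPM in AD + Yip7∆S samples 1 to 3, against 34.8, 39.3 and 39.5 CPM in Control samples 1 to 3 (log2 fold change 1.12, standard error 0.12, adjusted p = 3.37e-05). The gene puc, for a phosphatase and target of JNK signalling, had 127, 106 and 91.03 CPM in AD + Yip7∆S, against 70.7, 71.2 and 77.7 CPM in Control (log2 fold change 0.56, adjusted p = 0.00594). The NF-κB genes Rel (log2 fold change 0.62, adjusted p = 0.00111) and dl (log2 fold change 0.59, adjusted p = 0.00127) rose. The samples of Socs36E did not overlap between the groups. In AD against Control 10 of the 13 rose, and against AD directly edgeR called 0, with 0 at an unadjusted p under 0.05 and 0 by DESeq2.

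Antimicrobial peptide genes, whose products kill microbes, were lower in AD + Yip7∆S, and much of this lay in 1 library. Of 16 tested 0 rose and 7 fell, with a median of -2.43. Dro had 4.402, 6.24 and 8.27 CPM in AD + Yip7∆S samples 1 to 3, against 21.1, 189.8 and 39.1 CPM in Control samples 1 to 3 (log2 fold change -3.73, standard error 0.74, adjusted p = 0.00383). DptA had 5.33, 5.07 and 8.43 CPM in AD + Yip7∆S, against 7.58, 155 and 8.71 CPM in Control (log2 fold change -3.19, adjusted p = 0.0367). CecA1 had 0.0473, 0.243 and 0.337 CPM in AD + Yip7∆S, against 0.845, 38.2 and 0.863 CPM in Control (log2 fold change -5.99, adjusted p = 0.0134). Control sample 2 was the highest of all 6 samples in these 3 genes, and in Dro the groups did not overlap even without it. In DptA they overlapped, and without Control sample 2 its adjusted p was 0.63. Its call was also lost without any 1 AD + Yip7∆S sample (adjusted p between 0.0784 and 0.1). For CecA1 the log2 fold change was -2.03 without Control sample 2 (adjusted p = 0.145), and the adjusted p was 0.0533 without AD + Yip7∆S sample 1. The number that fell was 2 without Control sample 2, 1 without AD + Yip7∆S sample 1, 3 without sample 2, 4 without sample 3, 9 without Control sample 1 and 7 without Control sample 3. No antimicrobial peptide gene was called higher (1 at an unadjusted p under 0.05 and 0 by DESeq2). Of 12 bomanin genes, targets of the Toll pathway, 2 (16.7%) rose and 1 (8.33%) fell, beside 10.9% and 7.94% of all tested genes. Those that rose were BomS4 (log2 fold change 1.04, adjusted p = 0.009) and BomS6 (log2 fold change 0.96, adjusted p = 0.0266), and BomT3 fell (log2 fold change -0.37, adjusted p = 0.0191). The number that rose was 1 without AD + Yip7∆S sample 3, Control sample 1 or Control sample 3 (adjusted p of BomS6 between 0.088 and 0.119). The call of BomT3 was lost in 4 of the 6 cases (adjusted p between 0.0516 and 0.074). The melanization enzyme genes PPO1 (log2 fold change -1.3, adjusted p = 0.0136) and PPO2 (log2 fold change -1.38, adjusted p = 0.000739) both fell, and the call of PPO1 was lost without AD + Yip7∆S sample 2 (adjusted p = 0.0529) or Control sample 3 (adjusted p = 0.0596).

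TotM, a humoral stress peptide gene of the Turandot family, had 9.89, 235 and 14.1 CPM in AD + Yip7∆S, against 7.71, 16.3 and 10.4 CPM in Control (log2 fold change 2.91, adjusted p = 0.0414). AD + Yip7∆S sample 2 alone stood out, and without it the log2 fold change was 0.064 with an adjusted p of 0.903. Without any 1 Control sample the adjusted p of TotM was between 0.0742 and 0.123. TotC had 54.5, 450.4 and 75.03 CPM in AD + Yip7∆S, 13.5, 17.9 and 12.3 CPM in AD and 59.4, 71.7 and 64.5 CPM in Control, in which AD + Yip7∆S sample 2 was again the highest and AD lay below both other groups. TotC was not called against Control (adjusted p = 0.0835) and had an adjusted p of 0.0119 against AD, which was 0.0585 without AD sample 1 and 0.065 without AD sample 3.

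Of 75 cytochrome P450 genes, which take part in detoxification, 15 (20%) rose and 6 (8%) fell against Control, beside 10.9% and 7.94% of all tested genes. Cyp6a2 had 500.3, 371 and 451 CPM in AD + Yip7∆S, against 156, 165 and 139 CPM in Control (log2 fold change 1.52, adjusted p = 0.000116). Cyp6a20 had 47.8, 44.2 and 63.96 CPM in AD + Yip7∆S, against 125, 122 and 117 CPM in Control (log2 fold change -1.22, adjusted p = 0.000361). Of 33 glutathione S-transferase genes 6 (18.2%) rose and 3 (9.09%) fell (1 fell without AD + Yip7∆S sample 1 or Control sample 1), and GstE1 had 28.001, 28.3 and 32.1 CPM in AD + Yip7∆S, against 9.22, 9.495 and 10.2 CPM in Control (log2 fold change 1.61, adjusted p = 2.06e-06). None of these 3 genes overlapped between the groups. Of 23 autophagy genes 6 (26.1%) rose and 0 fell, beside 10.9% and 7.94% of all tested genes, with a median of 0.084. The autophagy receptor gene ref(2)P, the fly p62, had 469, 428 and 435 CPM in AD + Yip7∆S, 429, 367 and 398 CPM in AD and 276, 292 and 261 CPM in Control (log2 fold change 0.68, adjusted p = 0.000361 against Control). Atg8a, which coats autophagosomes, had 539, 529.8 and 693 CPM in AD + Yip7∆S, against 429, 425 and 416 CPM in Control (log2 fold change 0.47, adjusted p = 0.0112). The number was 3 without AD + Yip7∆S sample 1 or Control sample 2 or 3 and 2 without AD + Yip7∆S sample 2 and Control sample 1. Of 33 endosome and lysosome genes 1 (3.03%) rose and 3 (9.09%) fell, among them spin, a lysosomal transporter gene (log2 fold change -0.91, adjusted p = 0.000707). Of 13 amyloid-degrading peptidase genes 2 (15.4%) rose and 1 (7.69%) fell, beside 10.9% and 7.94% of all tested genes. Those that rose were Nep3 (log2 fold change 1.18, adjusted p = 0.000331) and Nep6 (log2 fold change 0.47, adjusted p = 0.0238), and the neprilysin gene Nep1 fell. Nep1 had 17.7, 17.7 and 14.3 CPM in AD + Yip7∆S, against 34.7, 40.9 and 42.3 CPM in Control (log2 fold change -1.25, adjusted p = 3.14e-05). The number that rose was 1 without AD + Yip7∆S sample 3, Control sample 1 or Control sample 3, where Nep6 lost its call (adjusted p between 0.0724 and 0.0886), and 3 without Control sample 2. Of 35 proteasome genes edgeR called 0, with 1 higher at an unadjusted p under 0.05 and 0 by DESeq2. Of 8 genes for the fly APP, secretases and tau edgeR called 0 as well, with 3 at an unadjusted p under 0.05 and 1 by DESeq2 in the 12-sample fit.

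Digestive enzyme genes were lower in AD + Yip7∆S than in AD and mostly not called against Control. Of 23 tested 1 rose (3 without Control sample 1) and 1 fell (0 without AD + Yip7∆S sample 1 or Control sample 2) against Control, whereas 15 rose and 2 fell in AD against Control and 9 were lower and 0 higher in AD + Yip7∆S against AD, which became 4 to 7 with 1 library left out (4 without AD + Yip7∆S sample 3, AD sample 2 or AD sample 3, 5 without AD + Yip7∆S sample 1 or AD sample 1 and 7 without AD + Yip7∆S sample 2; median log2 fold change 0.471 against Control and 3.333 for AD against Control). Jon99Cii, a serine protease gene of the Jonah family, had 0.0710, 0.0243 and 0.130 CPM in AD + Yip7∆S, 24.9, 35.9 and 22.6 CPM in AD and 0.0497, 0.0242 and 0.0240 CPM in Control (adjusted p = 4.45e-05 against AD). It was near 0 in every AD + Yip7∆S and Control sample. The amylase gene Amy-p had 43.5, 254 and 46.6 CPM in AD + Yip7∆S, 770.2, 727 and 509 CPM in AD and 77.4, 12.9 and 8.49 CPM in Control (log2 fold change 1.8, adjusted p = 0.184 against Control), and AD + Yip7∆S sample 2 was the highest of its group. Proteases of this family are similar in sequence, so a count can hold reads of a neighbour. The gut marker sums are given above, and their part in the AD values was not tested.

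A small set of genes differed from both AD and Control. The gene rt, whose product adds mannose to proteins (chromosome 3L, 11584122 to 11587770), had 99.9, 96.7 and 100.1 CPM in AD + Yip7∆S, 8.77, 8.95 and 10.6 CPM in AD and 6.56, 9.62 and 9.19 CPM in Control (log2 fold change 3.55, standard error 0.14, adjusted p = 6.78e-09 against Control and log2 fold change 3.39, adjusted p = 5.54e-08 against AD). Its AD + Yip7 samples had 8.98, 7.89 and 7.84 CPM. The gene thw (chromosome 3R, 7224414 to 7241138) had 45.7, 42.3 and 38.6 CPM in AD + Yip7∆S, 6.58, 7.22 and 7.54 CPM in AD and 4.97, 4.13 and 3.93 CPM in Control (log2 fold change 3.28, adjusted p = 4.29e-09 against Control and log2 fold change 2.57, adjusted p = 5.54e-08 against AD), and 36.6, 35.4 and 36.3 CPM in AD + Yip7. Thus thw was high in both groups with a yip7 transgene, and rt had a level in AD + Yip7 like that in AD and Control. CG14102 (chromosome 3L, 19798975 to 19801291) had 16.3, 17.3 and 19.2 CPM in AD + Yip7∆S, 6.61, 7.07 and 6.23 CPM in AD and 5.74, 6.55 and 6.81 CPM in Control (log2 fold change 1.41, adjusted p = 1.4e-05 against AD), and 19.2, 18.2 and 17.3 CPM in AD + Yip7. Dad, an inhibitory SMAD of the BMP pathway (chromosome 3R, 17054007 to 17070408), had 124, 129.6 and 141 CPM in AD + Yip7∆S, 65.6, 65.7 and 49.6 CPM in AD and 57.5, 56.2 and 55.8 CPM in Control (log2 fold change 1.22, adjusted p = 9.06e-06 against Control and log2 fold change 1.12, adjusted p = 0.00015 against AD), and 118, 106 and 111 CPM in AD + Yip7. In these 4 genes all AD + Yip7∆S samples were above all AD and all Control samples (9.1% of all tested genes lay fully above AD and 8.95% fully below it), and in thw, CG14102 and Dad the AD + Yip7 samples were above them too. Cyp6t1 had 26.96, 27.7 and 31.7 CPM in AD + Yip7∆S, 12.3, 11.8 and 9.42 CPM in AD and 17.2, 20.4 and 19.4 CPM in Control (log2 fold change 1.37, adjusted p = 0.000149 against AD), and 26.8, 24.8 and 31.9 CPM in AD + Yip7, which overlapped with AD + Yip7∆S.

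The Eig71E genes, which lie side by side and are known for induction by the steroid hormone ecdysone, form a cluster of this kind. Of 4 tested, 4 rose against Control and 4 were higher than in AD. Eig71Ee had 102, 92 and 111 counts in AD + Yip7∆S, 0 in every AD sample and 1, 0 and 2 counts in Control samples, and 91, 132 and 92 counts in AD + Yip7. Eig71Ej (chromosome 3L, 15660549 to 15661015) had 13.4, 14.5 and 21.9 CPM in AD + Yip7∆S, 0, 0 and 0 CPM in AD and 0.472, 0 and 0.0720 CPM in Control (adjusted p = 5.4e-05 against AD). Both genes were near 0 in AD and Control. In the opposite direction, CG10353 had 114, 111 and 99.1 CPM in AD + Yip7∆S, 509, 503 and 401 CPM in AD and 127, 124 and 129 CPM in Control (log2 fold change -2.12, adjusted p = 2.56e-07 against AD). CG2961 had 0.710, 0.801 and 0.570 CPM in AD + Yip7∆S, 6.13, 4.87 and 6.396 CPM in AD and 0.945, 0.652 and 0.576 CPM in Control (log2 fold change -3.06, adjusted p = 4.45e-05 against AD). In both genes AD was the group that stood apart. CG3097 had 36.8, 38.9 and 37.8 CPM in AD + Yip7∆S, 75.9, 82.6 and 80.8 CPM in AD and 34.5, 25.5 and 25.6 CPM in Control (log2 fold change -1.08, adjusted p = 0.00056 against AD). CG34382 had 1.25, 0.510 and 0.389 CPM in AD + Yip7∆S, 10.6, 9.35 and 11.1 CPM in AD and 0.622, 0.217 and 0.743 CPM in Control (log2 fold change -3.83, adjusted p = 0.000341 against AD). The ionotropic receptor gene Ir76a had 13.4, 13.6 and 16.7 CPM in AD + Yip7∆S, 34.3, 28.7 and 31.5 CPM in AD and 28.8, 24.02 and 25.4 CPM in Control (log2 fold change -1.11, adjusted p = 0.00037 against AD), and it was below both other groups. Its AD + Yip7 samples had 15.5, 15.6 and 13.3 CPM, which overlapped with AD + Yip7∆S. Ir76a (chromosome 3L, 19799278 to 19803427) overlaps CG14102 in position, so reads of one may be counted for the other. By its label AD + Yip7∆S differs from AD by the inserted yip7_S transgene, and from Control by the inserted Aβ42 transgene as well. The study states that the Yip7 variant lines it built share a landing site and a genetic background. A difference in background from AD or Control was not tested. Effects of an insertion, of its product and of the background cannot be told apart here.

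**Figure D5:**
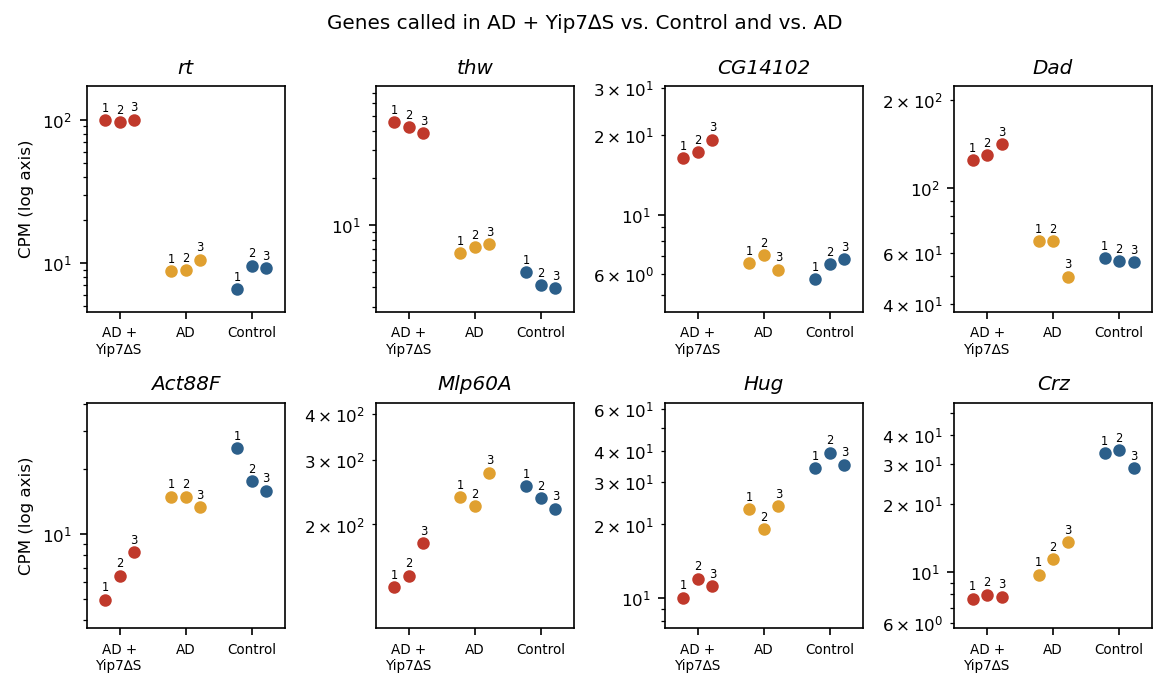
CPM on log axes of 8 genes called in AD + Yip7∆S against both Control and AD, with 1 point per sample and its replicate number above it. In rt, thw, CG14102 and Dad the 3 AD + Yip7∆S samples lie above every AD and Control sample, and in Act88F, Mlp60A, Hug and Crz they lie below them.

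A few genes were at or near 0 counts in 1 of the groups. Ratios of their summed counts per summed library total carry an exact (Clopper-Pearson) 95% interval that covers counting error only. The gene c-cup had 257, 280 and 307 counts in AD + Yip7∆S and 2, 0 and 0 counts in Control, a ratio of 433-fold (interval 119 to 3579). Elo68beta, a fatty acid elongase gene, had 114, 117 and 122 counts in AD + Yip7∆S and 0 in every Control sample, and against a floor of 3 counts per library it was at least 40.2-fold higher. The AD samples had 142, 125 and 128 counts of Elo68beta and 241, 279 and 352 counts of c-cup, so both were also present with Aβ42 alone. The ratio was 359 for CG30393 (interval 64 to 14217), 104 for Eig71Ee (35.3 to 508), 103 for RpS10a (34.8 to 500) and 35 for pav, a mitotic kinesin gene (16.7 to 88). In the other direction Obp99d, an odorant-binding protein gene, had 2, 0 and 1 counts in AD + Yip7∆S and 98, 91 and 163 counts in Control, 114-fold lower (interval 38.8 to 557). CG5246 had 1, 0 and 3 counts in AD + Yip7∆S and 65, 75 and 156 counts in Control, 72.2-fold lower (interval 27.9 to 267). In AD CG5246 had 162, 4 and 2 counts, so AD sample 1 differed from the other two.

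Of 39 genes that the study's text names for these transcriptomes, 13 rose and 12 fell in AD + Yip7∆S against Control, and between AD + Yip7∆S and AD edgeR called 0, with 10 at an unadjusted p under 0.05 and 4 by DESeq2 in the 12-sample fit. The study chose them on these samples, so the counts are not independent evidence. Called genes were spread over the chromosome arms, with 19.4% of tested genes on 2L, 20.5% on 2R, 20.5% on 3L, 18% on 3R, 16.6% on X and 3.49% of the 86 tested on chromosome 4.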

How the data were processed

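Poly(A) RNA from pools of fly heads was sequenced in 4 groups of 3 samples, and the 3 AD + Yip7∆S samples were compared with the 3 Control samples, grouped by the genotype in their titles. The deposited values are raw read counts per gene for 14162 genes and 12 samples. Per the study's methods, the authors used fastp for read cleaning, HISAT2 for mapping and HTSeq-count to obtain the counts. The submitters' processing notes list FastQC, HISAT2 2.1.0, StringTie 1.3.1, DESeq2 1.36.0 and the dm6 build. The strand setting and annotation version are not given in the sources used here, so reads of overlapping or antisense genes cannot be told apart, and reads of near-identical copies may be shared. Totals were 38064884 to 41737332 counts per sample over the series.

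Counts were tested in R 4.3.3 with edgeR 4.0.16 (filterByExpr, TMM factors, quasi-likelihood F test, limma 3.58.1). All 12 samples entered 1 fit with a coefficient per group, and p-values were adjusted by Benjamini-Hochberg over the 10577 genes that passed the filter, with a threshold of 0.05. CPM are edgeR's library-size-scaled counts with TMM factors, and log2 fold changes of 0 counts rest on edgeR's prior count. Every adjusted p in the text comes from edgeR unless DESeq2 (1.42.0) is named. Coordinates come from Ensembl's annotation of the fly genome, in which 13934 symbols were found and 228 were not. The labels do not say that the 3 samples of a group came from separate crosses, so p-values measure the spread between these samples. The floor of 3 counts and the exact intervals cover counting error only.

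Named genes are, in each direction, the 12 with the smallest adjusted p among called genes with at least a 2-fold change, no overlap between the groups and a mean of at least 5 CPM, and the 5 most abundant called genes. To them come 6 per direction against AD, genes at 3 or fewer counts in 1 group and at least 50 in the other, the 2 called list members per direction with the smallest adjusted p, any member of the stress lists and genes named in the study's text. Other members named were chosen after their values were seen. The comparison, its lists and its genes were chosen with earlier results of these data known. No set test was run. The test script was tested on simulated data. Promoter motifs and sequences were not analysed here.

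The samples carry replicate numbers in their titles. Same-numbered AD + Yip7∆S and Control samples did not deviate together from their group means (correlations of -0.38, -0.39 and 0.05), so the numbers were taken not to pair the samples. Alternatives were DESeq2, fits of 6 samples, other scalings and filters, the replicate number as a block and leaving out samples. Leaving out AD + Yip7∆S sample 2 and Control sample 1 together was chosen after seeing the data.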

Additional observations from a re-analysis of the deposited data

How the results depend on the processing

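The 1996 calls of AD + Yip7∆S against Control stayed within 1.5 times under DESeq2 (2448 on 12 samples and 2088 on 6), other scalings (1937 to 2011), no count filter (1857), a minimum of 10 counts (1775) and edgeR on 6 samples (1540). With 1 sample left out they were 1363 to 1806, with 798 to 1038 higher and 565 to 768 lower. A 2-fold threshold gave 627 (417 higher, 210 lower), and without both AD + Yip7∆S sample 2 and Control sample 1 there were 1157 (728 higher, 429 lower), a setting chosen after seeing the data. The 196 calls against AD were 483 (219 higher, 264 lower) with DESeq2 on 12 samples, 360 (164 higher, 196 lower) on 6, 120 (49 higher, 71 lower) with edgeR on 6 and 98 (45 higher, 53 lower) at 2-fold. With 1 sample left out they were 74 to 215 (38 to 86 higher, 34 to 129 lower). AD against Control gave 2750 calls, 1910 to 2635 with 1 sample left out and 853 (564 higher, 289 lower) at 2-fold. The upper quartile factors moved the split of calls to 68 higher and 143 lower against AD and to 1837 higher and 1010 lower for AD against Control. The cause of these shifts was not tested.

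The fit with the replicate number as a block called 1930 genes against Control (1083 higher, 847 lower) and 186 against AD. The numbers were taken not to pair the samples, although 3 samples per group cannot exclude a pairing. The block moved the count of ion channel genes to 12. The 1 value that reversed was TotM, with a log2 fold change of -0.15 without AD + Yip7∆S sample 2 and Control sample 1. No list median of AD + Yip7∆S against Control changed sign under other scalings, while some medians near 0 in the other comparisons did with upper quartile factors (respiratory chain, AD against Control, -0.057 and 0.016). Genes with few counts in 1 group limit what folds can be given.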
